A study of Mus musculus with 6 samples.

Results

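The cytochrome P450, UDP-glucuronosyltransferase (UGT) and P450 reductase genes were examined in AML12, an immortalised line of mouse hepatocytes that does not form tumours and comes from a mouse with a transgene for human TGF-alpha. Members were chosen by gene name alone: every row named Cyp with a family number, subfamily letter and gene number, every row named likewise under Ugt1, Ugt2 or Ugt3, and Por. This gave 116 genes of 26359 in the table, made up of 94 P450 genes, 21 UGT genes and Por. The rule reads no measured value, though it was set with earlier results of these data known. The series concerns TM9SF1, a multi-pass membrane protein, in liver ischemia-reperfusion injury and autophagy. Poly(A) mRNA was sequenced from 3 libraries whose cell line label is sh-1 and 3 whose label is sh-NC, names that read as a knockdown hairpin and a control hairpin in stably transfected cells. Groups were taken from that label, since the titles read Sh-2 for sh-1 and AML12 for sh-NC. Whether the sh-NC cells carry a hairpin is not stated in any source used here. With 1 hairpin, effects of the hairpin sequence, of selection and of reduced Tm9sf1 cannot be told apart.

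P450 enzymes are haem proteins that insert oxygen into drugs, pollutants, fatty acids, sterols, bile acids and retinoids. Those of the endoplasmic reticulum receive their electrons from NADPH through a shared reductase, the product of Por, and at times through cytochrome b5. UGT enzymes of the same membrane then couple the oxidised product, or a molecule such as bilirubin, to glucuronic acid taken from UDP-glucuronic acid, which makes it soluble enough to be excreted. The liver is the main organ of both steps, and hepatocytes in culture are known for losing many of these transcripts.

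Most of the 116 genes were silent or nearly so in these cells. No count was seen in any library for 36 of them, which allows at most 0.0120 counts scaled to 1000000 per library (CPM) over the 6 libraries together, and 80 had at least 1 count. A mean of at least 1 CPM in sh-1 or in sh-NC, taken here as expressed, was reached by 33 members (28.4%), compared with 11725 of all 26359 genes (44.5%). The 33 comprise Por, 23 P450 genes and 9 UGT genes. Of the 55 CYP2 and CYP3 genes, which carry much of the drug metabolism of liver, 11 were expressed and 21 had no count. Cyp2r1, which had no count either, is placed with the vitamin D genes by its function.

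The P450 genes named here as marks of mature hepatocytes averaged below 1 CPM in both groups. Cyp1a2, a methylxanthine-oxidising enzyme, averaged 0.0841 ± 0.0921 CPM in sh-1 and 0.206 ± 0.129 CPM in sh-NC (SD, n = 3 each, as for all errors of a mean). Cyp2e1, the ethanol-inducible P450 of the pericentral liver, averaged 0.538 ± 0.380 CPM in sh-1 and 0.806 ± 0.285 CPM in sh-NC. Cyp3a11, the main drug-oxidising CYP3A of mouse liver, averaged 0.220 ± 0.195 CPM in sh-1 and 0.465 ± 0.416 CPM in sh-NC. Cyp7a1, the rate-limiting enzyme of bile acid synthesis, had 3 counts over the sh-1 libraries and 0 over the sh-NC libraries. Cyp8b1, which sets the share of cholic acid among bile acids, had 6 counts in sh-1 and 8 in sh-NC. Cyp2e1 and Cyp3a11 were abundant enough to test and did not pass (log2 fold changes of -0.57 and -1.03, edgeR adjusted p of 0.462 and 0.346).

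On the scale of FPKM, the authors' values per transcript length and depth, which allow genes to be compared, Por was the most abundant member in both groups. It was followed in sh-1 by Cyp20a1 (22.7 ± 0.953 FPKM), Ugt1a6a (22.3 ± 11.8), Ugt1a6b (18.9 ± 3.43), Ugt2b34 (18.9 ± 4.68) and Cyp2s1 (15.8 ± 2.00), whose library values overlapped from each to the next. In sh-NC it was followed by Cyp20a1 (18.1 ± 2.06 FPKM) and Cyp4f16 (17.4 ± 0.748), which overlapped, and then by Cyp3a13 (11.1 ± 1.21) and Cyp4f13 (9.91 ± 0.233), which also overlapped.

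**Figure D1:**
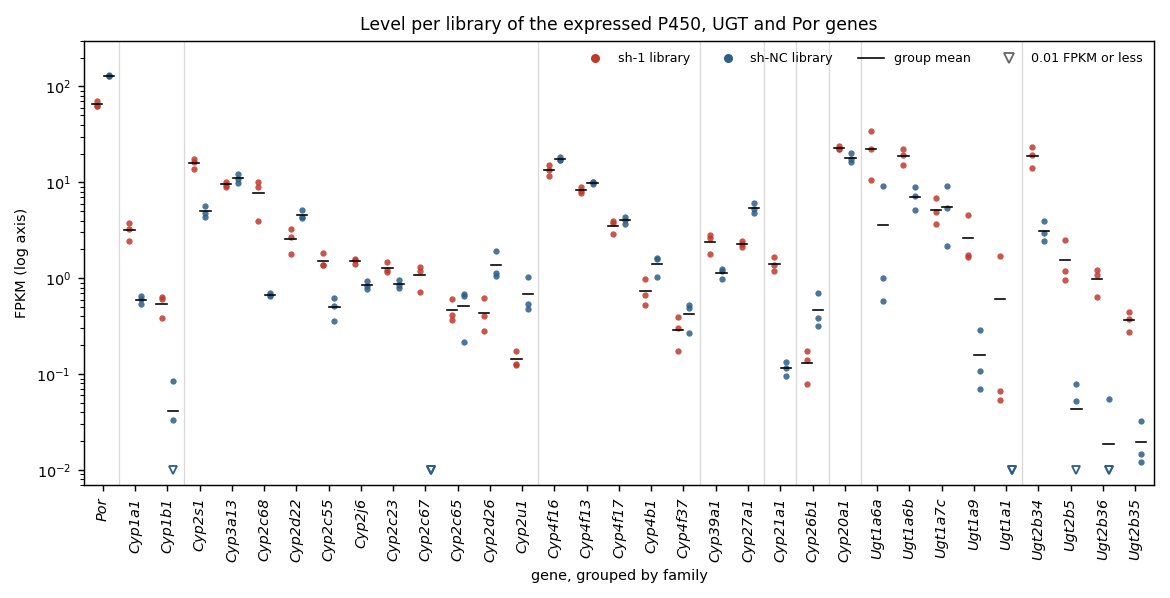
FPKM on a log axis for the 33 expressed members, grouped by family from Por to UGT2, with the 3 sh-1 libraries in red, left of the 3 sh-NC libraries in blue; each point is a library, black lines are group means and triangles stand for 0.01 FPKM or less. Por lies above every other member in both groups, the 4 UGT2B genes and both CYP1 genes lie higher in every sh-1 library, and Ugt1a6a is spread widely within each group.

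Between the groups, 37 members had enough counts to be tested in the edgeR quasi-likelihood fit over all 13197 genes. At an adjusted p under 0.05, 17 were higher and 10 lower in sh-1, and 10 did not pass. The share called, 73.0%, lies near that of all genes tested, 65.5% (33.3% higher and 32.2% lower), so a called member is no exception in this comparison. At least a 2-fold difference was reached by 15 of the higher members and 6 of the lower ones, whereas 17.1% of all tested genes were higher and 12.6% lower by that much. The CPM values of the groups did not overlap for 30 of the 37, and for 70.3% of all tested genes. The median log2 fold change was 0.27 over the 37 members and -0.00065 over all tested genes.

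These counts lean on the filter on low values. Of the 37 members, 8 reached it in all libraries of sh-1 but not in all of sh-NC, and all 8 are among the 17 higher ones: Cyp1b1, Cyp21a1, Cyp2c40, Cyp2c67, Ugt1a9, Ugt2b35, Ugt2b36 and Ugt2b5. They were tested because they are high in sh-1, so their calls, here and further on, are partly set by the filter. Of the 25 members past the filter in all libraries of both groups, 9 were higher, 10 were lower and 6 did not pass, with a median log2 fold change of -0.24. The libraries held 36997329 to 51334798 counts. In bulk RNA a lower level can mean fewer cells that carry the transcript or less of it per cell, and these cannot be told apart.

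Fold changes in this comparison also follow the base composition of the transcripts. Across all tested genes with an annotated transcript, the log2 fold change fell with GC content (Spearman's rho -0.50, across genes that are not independent replicates). Transcripts of the higher members had a median GC content of 42.7% and those of the lower members 53.3%, against 50.3% over all tested genes. With each library's trend along GC content and length removed, 13 members were higher and 9 lower, whereas 32.9% of all 11956 genes so tested were higher and 34.7% lower. The correction took away the calls of Cyp39a1, Cyp2c55, Cyp2j6, Cyp4f13 and Cyp4f16 and turned that of Cyp20a1. Where this matters for a member, the corrected value stands beside the main one.

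**Figure D2:**
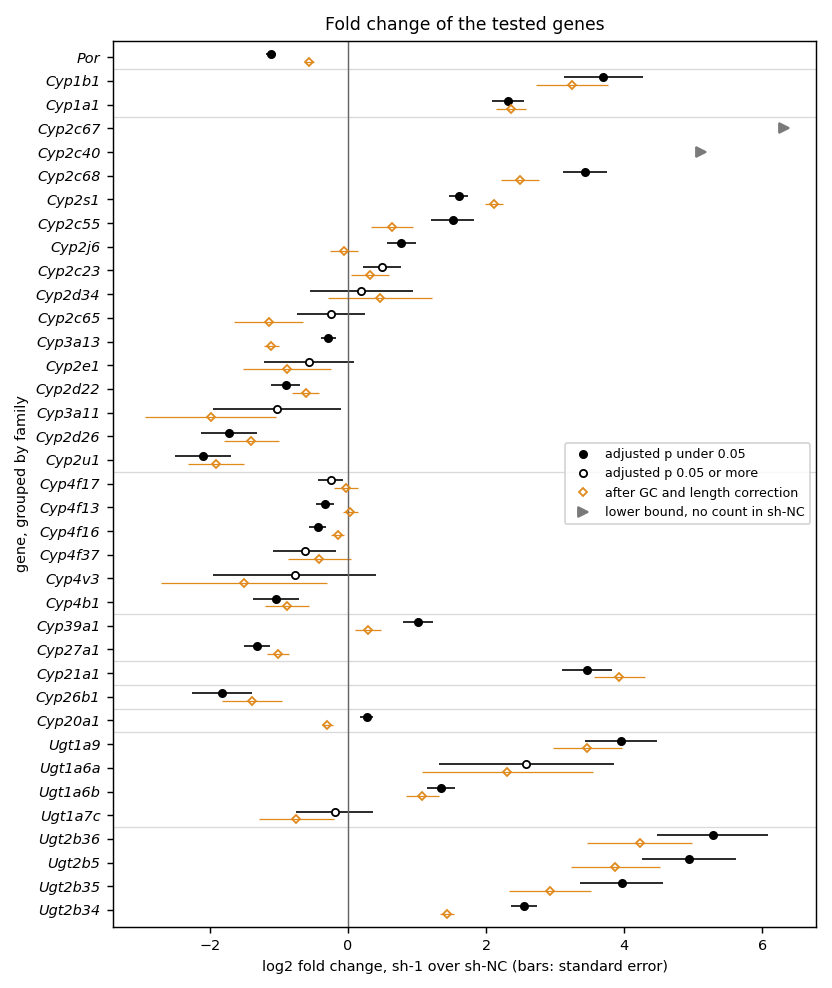
Log2 fold change, sh-1 over sh-NC, of the 37 tested members, grouped by family from top to bottom; circles with standard error bars are the fit on the deposited counts (filled where the adjusted p is under 0.05), orange diamonds the fit after the GC and length correction, and grey triangles the lower bounds of Cyp2c67 and Cyp2c40, which have no count in sh-NC. All 4 UGT2B members lie right of 0 and Por left of it in both fits, while Cyp20a1 changes side.

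Por, the reductase on which the microsomal P450 enzymes depend, was lower in sh-1. It lies on chromosome 5 from 135670033 to 135735326 on the plus strand (GRCm38, GENCODE M21, protein coding). It measured 164, 160 and 167 CPM in the sh-1 libraries, against 346, 350 and 371 CPM in the sh-NC libraries. The highest sh-1 library was thus far below the lowest sh-NC library, and the spread within a group was small. The log2 fold change was -1.12 (0.46-fold with an SE of 0.0749 on the log2 scale, edgeR adjusted p = 1.06e-07), and -0.56 after the correction (edgeR adjusted p = 3.4e-06).

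The 94 P450 genes together were not lower in sh-1. Their summed level was 94.6, 108 and 106 FPKM in the sh-1 libraries and 88.6, 85.2 and 88.3 FPKM in the sh-NC libraries, with no overlap. The ratio of the means was 1.18. Por divided by that sum was 0.664, 0.586 and 0.671 in the sh-1 libraries, against 1.47, 1.497 and 1.497 in the sh-NC libraries. By the naming rule the P450 sum leaves out Cyp51, which averaged 78.7 FPKM in sh-1 and 21.0 FPKM in sh-NC. It also includes mitochondrial members such as Cyp27a1, which do not depend on Por. The 3 most abundant P450 members of a library made up on average 50.6% of the sum in sh-1 and 53.3% in sh-NC. The 21 UGT genes together measured 56.1, 76.6 and 82.5 FPKM in the sh-1 libraries and 21.5, 19.1 and 18.1 FPKM in the sh-NC libraries, and the ratio of their means was 3.67. The groups do not overlap in any of these sums, and with 3 libraries a side an exact permutation test could not reach a two-sided p below 0.10. Neither the sums nor the ratio carry the GC and length correction. That correction moved Por from -1.12 to -0.56 and Ugt2b34 from 2.55 to 1.43 on the log2 scale.

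**Figure D3:**
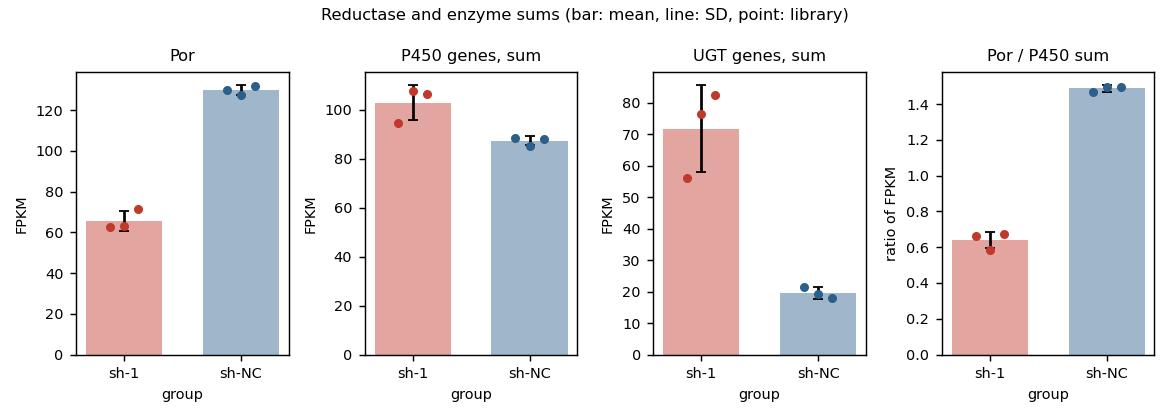
Level per group of Por, of the 94 P450 genes summed and of the 21 UGT genes summed, in FPKM, and the ratio of Por to the P450 sum, with sh-1 left of sh-NC; bars are means of 3 libraries, lines the SD and points the libraries. Por averages 65.7 FPKM in sh-1 and 130 in sh-NC, while the UGT sum averages 71.8 FPKM in sh-1 and 19.6 in sh-NC.

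Both expressed CYP1 genes rose in sh-1. Cyp1a1, which oxidises polycyclic aromatic hydrocarbons and is the classical transcript induced by the aryl hydrocarbon receptor, lies on chromosome 9 from 57687928 to 57703824 on the plus strand. It measured 6.64, 10.1 and 8.63 CPM in the sh-1 libraries and 1.81, 1.71 and 1.56 CPM in the sh-NC libraries. Every sh-1 library exceeded every sh-NC library several times over (log2 fold change 2.32, SE 0.227, edgeR adjusted p = 2.28e-06, corrected 2.36). Cyp1b1, on chromosome 17 from 79701537 to 79715061 on the minus strand, oxidises oestradiol and similar aromatic substrates outside the liver. It measured 2.09, 3.07 and 3.05 CPM in the sh-1 libraries, against 0.411, 0.184 and 0.0416 CPM in the sh-NC libraries. Its groups did not overlap either (log2 fold change 3.70, SE 0.567, edgeR adjusted p = 9.81e-05, corrected 3.24). In sh-NC it reached the count filter in 1 library of 3, so its size rests on few counts there.

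The receptor acts by binding, with its partner ARNT, to DNA that holds the core GCGTG. The 250 bases before the RefSeq start (GRCm38.p6) are shown for both CYP1 genes and for Por, because Ahr itself differed between the groups as given further on. Capitals mark GCGTG or its reverse complement CACGC, 5′ to 3′ on the gene's strand. The windows are chr9:57697363-57697612 (plus strand), chr17:79715062-79715311 (minus strand) and chr5:135688895-135689144 (plus strand), and for Cyp1a1 and Por GENCODE also places a transcript start further upstream.
Cyp1a1: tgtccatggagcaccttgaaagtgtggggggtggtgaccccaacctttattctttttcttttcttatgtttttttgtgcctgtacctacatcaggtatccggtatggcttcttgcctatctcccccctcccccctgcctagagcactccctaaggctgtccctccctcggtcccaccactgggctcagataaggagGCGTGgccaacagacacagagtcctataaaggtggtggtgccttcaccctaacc
Cyp1b1: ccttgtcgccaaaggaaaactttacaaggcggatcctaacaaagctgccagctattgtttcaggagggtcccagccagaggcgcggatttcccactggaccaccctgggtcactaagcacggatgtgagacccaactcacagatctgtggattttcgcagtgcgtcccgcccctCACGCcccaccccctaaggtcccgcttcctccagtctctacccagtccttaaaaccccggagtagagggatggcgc
Por: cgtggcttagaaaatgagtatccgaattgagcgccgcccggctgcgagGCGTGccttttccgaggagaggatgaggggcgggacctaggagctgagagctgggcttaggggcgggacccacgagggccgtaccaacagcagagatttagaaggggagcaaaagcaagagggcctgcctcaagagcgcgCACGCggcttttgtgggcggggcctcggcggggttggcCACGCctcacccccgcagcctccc
The match begins 54 bases upstream of the start in Cyp1a1 and 76 bases upstream in Cyp1b1, and the Por window holds 3 matches, which begin 24, 62 and 202 bases upstream. The core is short and common: on either strand it occurs in 9250 of the 32851 promoter windows of this length in the RefSeq table (28.2%). Of the 29 tested members with a window there, 7 hold it, among them 4 of the 14 higher members and 2 of the 8 lower ones. A match describes the letters only and does not show a bound site, and bases further upstream were not searched.

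Among the CYP2 and CYP3 genes the direction was mixed, with 6 of the 15 tested members higher, 4 lower and 5 not past the threshold, a share near the 65.5% called over all genes. Cyp2s1, a P450 of epithelia outside the liver, was the most abundant of the higher ones and lies on chromosome 7 from 25802475 to 25816913 on the minus strand. It measured 39.1, 46.0 and 48.9 CPM in the sh-1 libraries, against 12.4, 14.2 and 17.5 CPM in the sh-NC libraries. The log2 fold change was 1.60 (SE 0.142, edgeR adjusted p = 9.74e-07), and 2.11 after the correction, with a transcript GC content of 57.0%. Exons of Gm26707 on the opposite strand overlap it. Whether reads were counted by strand is not given in the sources used here, so reads of overlapping genes cannot be told apart.

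Neighbouring CYP2C genes on chromosome 19, from a mouse family that oxidises arachidonic acid, rose together. Cyp2c68 measured 7.05, 15.5 and 17.7 CPM in the sh-1 libraries and 1.26, 1.21 and 1.27 CPM in the sh-NC libraries. The sh-1 libraries differed among themselves, with replicate 1 lowest, yet all lay above sh-NC (log2 fold change 3.43, edgeR adjusted p = 1.68e-06, corrected 2.49). Cyp2c67 measured 1.29, 2.07 and 2.29 CPM in the sh-1 libraries and had no count in any sh-NC library. Taken against 3 counts over the sh-NC group it was at least 79.8-fold higher in sh-1 (edgeR adjusted p = 8.32e-06). Cyp2c40, at 0.456, 0.977 and 1.02 CPM in the sh-1 libraries, also had no count in sh-NC and was at least 34.6-fold higher by the same measure (edgeR adjusted p = 0.000147). Both entered the test through sh-1 alone, and since low counts in the table are more often even than odd, bounds drawn from 3 counts may be too high.

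These 3 transcripts are alike enough that counts can move between them. Of the 100-base windows of their annotated transcripts, 44.1% in Cyp2c40, 23.7% in Cyp2c67 and 19.8% in Cyp2c68 also occur in another gene. Their sum with the neighbour Cyp2c69, which had no count itself, does not depend on how reads are split among them. It measured 8.80, 18.6 and 21.0 CPM in the sh-1 libraries and 1.26, 1.21 and 1.27 CPM in the sh-NC libraries. Refitted as 1 row, chosen after seeing the data, the 4 genes were 12.9-fold higher in sh-1 (log2 fold change 3.69, SE 0.307). This refit was made without the GC and length correction.

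Other members of the family on the same chromosome had smaller values. Cyp2c55, another arachidonic acid oxidase, measured 2.85, 3.65 and 2.76 CPM in the sh-1 libraries and 1.06, 0.787 and 1.37 CPM in the sh-NC libraries, without overlap. It rose by 1.52 on the log2 scale (edgeR adjusted p = 0.000971), but the corrected value of 0.64 did not pass (adjusted p = 0.0802). Cyp2c23, an epoxygenase, measured 2.33, 2.84 and 2.37 CPM in sh-1 and 1.69, 1.65 and 2.02 CPM in sh-NC, and its log2 fold change of 0.49 did not pass (edgeR adjusted p = 0.134). Cyp2c65 measured 0.743, 1.19 and 0.808 CPM in sh-1 and 0.435, 1.42 and 1.39 CPM in sh-NC, with groups that overlap (-0.24, edgeR adjusted p = 0.683). The differences between these members' responses were not tested.

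Cyp2j6, of the epoxygenase family CYP2J, measured 5.25, 5.82 and 5.63 CPM in the sh-1 libraries and 3.07, 2.99 and 3.70 CPM in the sh-NC libraries. The groups did not overlap and the log2 fold change was 0.77 (edgeR adjusted p = 0.00537), but the corrected value was -0.06, on the other side of 0 and not called (adjusted p = 0.811).

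The 4 lower members of CYP2 and CYP3 came from other subfamilies. Cyp2d22, a mouse member of the family of the human drug-metabolising CYP2D6, measured 5.16, 7.51 and 8.99 CPM in the sh-1 libraries, against 12.3, 12.5 and 15.7 CPM in the sh-NC libraries. Its highest sh-1 library stayed below its lowest sh-NC library (log2 fold change -0.90, edgeR adjusted p = 0.00211, corrected -0.61). Cyp2d26, of the same subfamily, measured 0.504, 1.07 and 0.704 CPM in sh-1 and 1.84, 2.07 and 3.64 CPM in sh-NC (log2 fold change -1.73, edgeR adjusted p = 0.00231, corrected -1.40). Cyp2u1, a fatty acid hydroxylase, measured 0.312, 0.582 and 0.573 CPM in sh-1 and 2.66, 1.57 and 2.08 CPM in sh-NC. It fell by 2.10 on the log2 scale (edgeR adjusted p = 0.000614, corrected -1.91), and exons of 4930534D22Rik on the opposite strand overlap it.

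Cyp3a13, the only CYP3A gene expressed here, is found in liver and gut. It measured 31.1, 27.8 and 26.9 CPM in the sh-1 libraries and 37.5, 31.6 and 35.4 CPM in the sh-NC libraries. The highest sh-1 library came within 0.5 CPM of the lowest sh-NC library. The log2 fold change of -0.28 passed narrowly (edgeR adjusted p = 0.0372) and no longer passed when any library other than sh-1 replicate 1 or sh-NC replicate 2 was left out (-0.22 to -0.27, adjusted p 0.0958 to 0.142). The corrected value was -1.11 (edgeR adjusted p = 9.04e-07). Cyp2d34, at 0.259 ± 0.152 CPM in sh-1 and 0.227 ± 0.115 CPM in sh-NC, did not pass (edgeR adjusted p = 0.839).

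Of the 17 CYP4 genes 6 were tested, of which 3 were lower and none higher, where 32.2% of all tested genes were lower. After the correction 1 of the 6, Cyp4b1, was lower. These enzymes hydroxylate the end of fatty acid chains, and the CYP4F group also acts on leukotrienes. The median log2 fold change of the 6 was -0.54. Cyp4f16, on chromosome 17 from 32536558 to 32551798 on the plus strand, measured 34.9, 26.3 and 30.0 CPM in the sh-1 libraries and 38.7, 40.8 and 44.3 CPM in the sh-NC libraries, with no overlap (log2 fold change -0.44, SE 0.119, edgeR adjusted p = 0.00577). Nearby, Cyp4f13 measured 13.3, 14.4 and 12.5 CPM in sh-1 and 16.1, 16.8 and 17.6 CPM in sh-NC (log2 fold change -0.33, SE 0.130, edgeR adjusted p = 0.0412). Neither passed after the correction, with values of -0.15 and 0.03, and the call of Cyp4f13 was lost without any 1 library other than sh-NC replicate 1 (adjusted p 0.0590 to 0.153).

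Cyp4b1, which activates several lung and liver toxins, measured 1.92, 1.02 and 1.28 CPM in the sh-1 libraries and 2.03, 3.31 and 3.35 CPM in the sh-NC libraries. Sh-1 replicate 1 nearly reached sh-NC replicate 1. The log2 fold change was -1.04 (edgeR adjusted p = 0.0157, corrected -0.88, adjusted p = 0.0254), and it no longer passed without sh-NC replicate 2, sh-NC replicate 3 or sh-1 replicate 2 (-0.84 to -0.93, adjusted p 0.0552 to 0.0683). Cyp4f17 measured 5.13, 6.68 and 6.41 CPM in sh-1 and 7.61, 7.32 and 6.80 CPM in sh-NC (-0.25, edgeR adjusted p = 0.241). Cyp4f37 measured 1.08, 0.465 and 0.834 CPM in sh-1 and 1.45, 0.787 and 1.43 CPM in sh-NC, overlapping (-0.63, edgeR adjusted p = 0.243). Cyp4v3, a fatty acid hydroxylase at 0.205 ± 0.270 CPM in sh-1 and 0.357 ± 0.309 CPM in sh-NC, did not pass either (edgeR adjusted p = 0.583).

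Of the 6 bile acid and cholesterol P450 genes, the 2 expressed moved in opposite directions. Cyp27a1, the mitochondrial sterol hydroxylase that starts the acidic route to bile acids, lies on chromosome 1 from 74713574 to 74737892 on the plus strand. It measured 4.82, 4.30 and 4.01 CPM in the sh-1 libraries and 9.23, 10.8 and 12.7 CPM in the sh-NC libraries, without overlap. It fell by 1.32 on the log2 scale (SE 0.186, edgeR adjusted p = 4.92e-05, corrected -1.02). Cyp39a1, an oxysterol hydroxylase, measured 5.66, 8.75 and 8.05 CPM in the sh-1 libraries and 3.80, 4.01 and 3.28 CPM in the sh-NC libraries. Its groups did not overlap and it rose by 1.02 (SE 0.217, edgeR adjusted p = 0.00126), but the corrected value of 0.29 did not pass (adjusted p = 0.202).

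Of the 6 steroid hormone P450 genes only Cyp21a1, the hydroxylase of adrenal glucocorticoid and mineralocorticoid synthesis, was expressed, and it rose. It lies on chromosome 17 from 34801348 to 34804561 on the minus strand. It measured 3.55, 2.81 and 2.50 CPM in the sh-1 libraries, against 0.290, 0.236 and 0.270 CPM in the sh-NC libraries. The lowest sh-1 library was far above every sh-NC library (log2 fold change 3.46, SE 0.364, edgeR adjusted p = 4.22e-06, corrected 3.93). The filter was met through sh-1 alone. Exons of Tnxa overlap it on the opposite strand, and 5.87% of its 100-base windows occur in another gene, so part of its counts could belong elsewhere. Cyp11b1, Cyp11b2 and Cyp19a1 had no count in any library.

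Of the 6 genes for vitamins A and D only Cyp26b1, which degrades retinoic acid, was expressed. It measured 0.360, 0.651 and 0.808 CPM in the sh-1 libraries, against 3.14, 1.78 and 1.54 CPM in the sh-NC libraries. The groups did not overlap, and it fell by 1.83 on the log2 scale (SE 0.432, edgeR adjusted p = 0.00253, corrected -1.39). Cyp20a1, a P450 without an established substrate, measured 51.0, 53.2 and 49.7 CPM in the sh-1 libraries and 46.1, 41.8 and 39.5 CPM in the sh-NC libraries. Its log2 fold change of 0.27 passed (edgeR adjusted p = 0.0229), and after the correction it passed in the other direction (-0.30, edgeR adjusted p = 0.00372). Its call was lost or turned in 5 of 14 alternative settings, the correction among them.

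The UGT1 locus on chromosome 1 gave more transcript in sh-1, but its split among genes was uneven between libraries. The locus works as a row of alternative first exons, each with its own promoter and its own substrate-binding part, that are spliced to one set of common exons. All 9 UGT1 members share the second exon, chr1:88215044-88215175 (plus strand, GENCODE M21 on GRCm38). The junction is shown for the 4 tested members, because it shows where their own parts differ and where the common part begins. The last 40 bases of each gene's own first coding exon are in lower case. The first 40 of the common exon, chr1:88215044-88215083, are in capitals. The lower-case parts are chr1:88139292-88139331, chr1:88107760-88107799, chr1:88095939-88095978 and chr1:88071639-88071678, in the order printed.
Ugt1a6a: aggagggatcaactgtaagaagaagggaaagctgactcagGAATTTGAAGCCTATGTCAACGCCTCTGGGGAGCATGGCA
Ugt1a6b: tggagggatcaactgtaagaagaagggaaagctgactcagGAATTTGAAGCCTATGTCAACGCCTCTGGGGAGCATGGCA
Ugt1a7c: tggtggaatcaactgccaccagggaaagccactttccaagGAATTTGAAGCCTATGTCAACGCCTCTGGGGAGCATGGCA
Ugt1a9: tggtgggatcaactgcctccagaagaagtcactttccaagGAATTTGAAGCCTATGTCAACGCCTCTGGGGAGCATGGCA
Against Ugt1a6a, the own part differs at 1 of these 40 positions in Ugt1a6b, at 20 in Ugt1a7c and at 17 in Ugt1a9. Over the whole transcripts, the share of 100-base windows also found in another gene was 100% for Ugt1a6a, 71.5% for Ugt1a6b, 68.8% for Ugt1a7c and 58.5% for Ugt1a9. Of the 4 annotated Ugt1a7c transcripts, 1 contains a first coding exon of Ugt1a6a (chr1:88138473-88139331). Values of single UGT1 genes are therefore uncertain, and their sum is the firmer measure.

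Summed over the locus, the level was 98.3, 129 and 132 CPM in the sh-1 libraries, against 49.8, 42.6 and 43.2 CPM in the sh-NC libraries. Every sh-1 library lay well above every sh-NC library. Refitted as 1 row, chosen after seeing the data, the locus was 2.65-fold higher in sh-1 (log2 fold change 1.41, SE 0.119). No GC and length correction was applied to that row. Exons of Gm20528 overlap the locus on the opposite strand.

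Ugt1a6b, whose product conjugates small planar phenols, measured 51.7, 34.5 and 44.6 CPM in the sh-1 libraries and 16.5, 12.6 and 22.3 CPM in the sh-NC libraries. It rose without overlap (log2 fold change 1.34, SE 0.203, edgeR adjusted p = 0.000132). Ugt1a9, which conjugates bulkier phenols, measured 3.79, 3.86 and 9.98 CPM in the sh-1 libraries and 0.677, 0.184 and 0.270 CPM in the sh-NC libraries. It too rose without overlap, with sh-1 replicate 3 well above the other two (log2 fold change 3.95, SE 0.526, edgeR adjusted p = 4.37e-05). Entry to the test was through sh-1 alone.

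Ugt1a6a, the near-copy of Ugt1a6b, measured 25.1, 78.5 and 51.6 CPM in the sh-1 libraries and 2.37, 22.5 and 1.45 CPM in the sh-NC libraries. In sh-NC it was high in replicate 2 alone, which came close to the lowest sh-1 library. The log2 fold change of 2.58 did not pass (SE 1.27, edgeR adjusted p = 0.146), whereas without sh-NC replicate 2 it was 4.77 and passed (adjusted p = 0.00736). Ugt1a7c, another phenol-conjugating member, measured 16.1, 11.6 and 22.0 CPM in the sh-1 libraries and 30.3, 7.32 and 19.2 CPM in the sh-NC libraries, with groups that overlap (-0.20, edgeR adjusted p = 0.785). It was lowest in sh-NC replicate 2, where Ugt1a6a was highest.

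Expressed as a share of the counts of the locus, Ugt1a6a took 25.5, 61.0 and 39.1% in the sh-1 libraries and 4.75, 52.9 and 3.37% in the sh-NC libraries. Ugt1a7c took 16.3, 8.98 and 16.7% in the sh-1 libraries and 60.7, 17.2 and 44.4% in the sh-NC libraries. Within each group, the library with the largest share of Ugt1a6a had the smallest share of Ugt1a7c. Replicates are numbered within a group, and no label states a match between groups. The sum of the locus in sh-NC replicate 2 did not stand apart from the other sh-NC libraries in the same way.

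Ugt1a1, the bilirubin-conjugating enzyme, measured 0.144, 0.163 and 3.83 CPM in the sh-1 libraries and had no count in sh-NC. Its level came almost wholly from sh-1 replicate 3, too few libraries reached the count filter for it to be tested, and no fold change is given. Ugt1a10 had 1.39, 0.140 and 0 CPM in the sh-1 libraries and no count in sh-NC, and Ugt1a5 and Ugt1a8 had no count in any library.

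**Figure D4:**
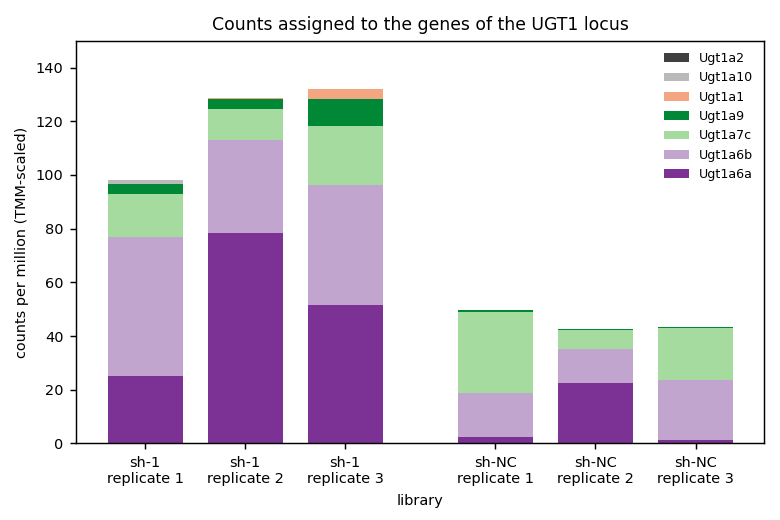
CPM assigned to each gene of the UGT1 locus, stacked per library, with the 3 sh-1 libraries left of the 3 sh-NC libraries. The whole bars reach 98.3 to 132 CPM in sh-1 and 42.6 to 49.8 CPM in sh-NC, while the parts given to Ugt1a6a and Ugt1a7c differ between libraries of the same group.

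All 4 tested members of UGT2 rose in sh-1, where 33.3% of all tested genes were higher. Ugt2b5, Ugt2b35 and Ugt2b36 entered the test through sh-1 alone, so that share is no measure for them. Only Ugt2b34 passed the filter in both groups. Enzymes of the UGT2B subfamily conjugate steroids, bile acids, fatty acids and many drugs, and their genes lie side by side on chromosome 5. Ugt2b34, on the minus strand from 86889767 to 86906937, was by far the most abundant. It measured 45.7, 60.0 and 72.7 CPM in the sh-1 libraries, against 12.4, 8.05 and 10.02 CPM in the sh-NC libraries. Its lowest sh-1 library was several times its highest sh-NC library (log2 fold change 2.55 or 5.85-fold, SE 0.190, edgeR adjusted p = 3.8e-07). The GC content of its transcript is 38.8%, and the corrected value was 1.43 (edgeR adjusted p = 3.53e-08).

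The other 3 were nearly silent in sh-NC and passed the filter through the sh-1 libraries alone. Ugt2b5 measured 2.30, 1.79 and 4.69 CPM in the sh-1 libraries and 0, 0.105 and 0.166 CPM in the sh-NC libraries (log2 fold change 4.93, SE 0.680, edgeR adjusted p = 4.33e-05, corrected 3.87). Of its 100-base windows, 24.7% occur in another gene. Ugt2b36 measured 1.27, 2.07 and 2.35 CPM in sh-1 and 0, 0 and 0.125 CPM in sh-NC (log2 fold change 5.28, SE 0.805, edgeR adjusted p = 9.35e-05, corrected 4.22). Ugt2b35 measured 0.983, 1.28 and 1.49 CPM in sh-1 and 0.0483, 0.0525 and 0.125 CPM in sh-NC (log2 fold change 3.96, SE 0.600, edgeR adjusted p = 8.8e-05, corrected 2.92). None of the 3 overlapped between the groups, and their sizes rest on at most 12 counts over the sh-NC libraries. The 12 genes of UGT2 and UGT3 summed to 51.0, 65.4 and 81.9 CPM in the sh-1 libraries and 12.7, 8.39 and 10.5 CPM in the sh-NC libraries, a ratio of means of 6.28. That sum is not corrected for GC content and length.

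The 43 members with counts that were too low to test averaged at most 0.510 CPM in either group, apart from Ugt1a1. They divide into 19 CYP2 and CYP3 genes, 7 CYP4 genes, 10 P450 genes of the remaining groups and 7 UGT genes.

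The partners of these enzymes, from lists written for this comparison, moved in both directions. For this and every list below, the shares over all tested genes were 33.3% higher and 32.2% lower. Of 8 tested electron transfer partners of P450, 5 were higher and 1 lower in sh-1, with a median log2 fold change of 0.42. After the correction 4 of the higher calls and 0 of the lower ones were kept. Cyb5a, cytochrome b5 of the endoplasmic reticulum, averaged 209 ± 22.4 CPM in sh-1 and 73.4 ± 2.49 CPM in sh-NC (log2 fold change 1.51, edgeR adjusted p = 5.82e-08). Its mitochondrial relative Cyb5b rose by 1.36 (edgeR adjusted p = 7.29e-08), and Cyb5r3, the reductase of cytochrome b5, by 1.06 (edgeR adjusted p = 1.73e-07). All 3 kept their direction after the correction, with 1.34, 0.89 and 1.49. Fdxr, the mitochondrial counterpart of Por, averaged 7.06 ± 0.381 CPM in sh-1 and 13.0 ± 1.87 CPM in sh-NC (-0.88, edgeR adjusted p = 0.000514), but did not pass after the correction (-0.28, adjusted p = 0.104).

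Of 12 tested genes of haem synthesis and breakdown, 3 were higher and 2 lower. Hmox1, which breaks haem down, averaged 89.1 ± 19.5 CPM in sh-1 and 279 ± 11.7 CPM in sh-NC (log2 fold change -1.64, edgeR adjusted p = 4.6e-07, corrected -1.39). Alas1, the rate-limiting enzyme of haem synthesis in liver, fell by 0.58 (edgeR adjusted p = 2.59e-05, corrected -0.26), while Fech, the enzyme that inserts the iron, rose by 0.61 (edgeR adjusted p = 6.6e-05). That rise was lost after the correction (0.06, adjusted p = 0.551).

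On the list for the supply of UDP-glucuronic acid, the co-substrate of the UGT enzymes, 4 of 7 tested genes were higher and 2 lower. The list is broad and includes Slc35a3 and Gusb, whose main roles lie outside that supply. Ugp2, which makes UDP-glucose, averaged 98.5 ± 9.03 CPM in sh-1 and 22.2 ± 2.19 CPM in sh-NC (log2 fold change 2.15, edgeR adjusted p = 1.79e-08, corrected 1.10). Ugdh, which oxidises it to UDP-glucuronic acid, rose by 0.45 (edgeR adjusted p = 0.000767), and its corrected value of 0.06 did not pass (adjusted p = 0.466). The sugar nucleotide carrier Slc35a3 rose by 1.93 (edgeR adjusted p = 3.14e-07, corrected 0.80), and Slc35d1, which carries UDP-glucuronic acid into the endoplasmic reticulum, averaged 20.6 ± 1.10 CPM in sh-1 and 29.4 ± 4.02 CPM in sh-NC (edgeR adjusted p = 0.00264, corrected -0.72).

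Of 28 tested transcription factors known to act on P450 or UGT genes, 11 were higher and 10 lower, with a median log2 fold change of 0.09. Ahr, the aryl hydrocarbon receptor, averaged 20.1 ± 3.81 CPM in sh-1 and 5.86 ± 0.572 CPM in sh-NC (log2 fold change 1.78, edgeR adjusted p = 2.17e-06, corrected 1.29). Nr1h4, the bile acid receptor, averaged 45.6 ± 1.47 CPM in sh-1 and 8.17 ± 0.0583 CPM in sh-NC (2.48, edgeR adjusted p = 7.71e-09), and Hnf4a, a master regulator of hepatocyte genes, rose by 1.17 (edgeR adjusted p = 1.66e-07). Tef, a clock-driven factor, and Rxrb, a partner of nuclear receptors, fell by 2.01 and 1.58 on the log2 scale (edgeR adjusted p of 7.65e-09 and 1.37e-07, corrected -1.76 and -0.90). The drug receptors Nr1i2 (PXR) and Nr1i3 (CAR) were low and did not pass, with log2 fold changes of 0.01 and 1.22 (edgeR adjusted p of 0.987 and 0.437). Nr1i3, like Ugt1a6a, was high in sh-NC replicate 2 alone, with 3.09, 3.54 and 2.16 CPM in sh-1 and 0.193, 3.54 and 0.104 CPM in sh-NC.

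Other enzymes of the same metabolic steps were likewise divided. Of 12 tested phase I enzymes outside the P450 family, 3 were higher and 4 lower. Nqo1, a quinone reductase, averaged 5.24 ± 1.63 CPM in sh-1 and 0.461 ± 0.109 CPM in sh-NC (log2 fold change 3.49, edgeR adjusted p = 1.83e-06), and Aox1, an aldehyde oxidase, rose by 1.27 (edgeR adjusted p = 0.000155). Ephx1, the microsomal epoxide hydrolase, and Akr1b3, an aldose reductase, fell by 0.66 and 0.51 on the log2 scale (edgeR adjusted p of 7.45e-05 and 0.000451). Of 6 tested sulfotransferase genes, among them the 2 that make the sulfate donor, 4 were higher and 1 lower. The smallest adjusted p was that of Sult1c2 (log2 fold change 1.35, edgeR adjusted p = 3.82e-06, corrected 0.54). Of the 3 P450 genes whose names fall outside the pattern, Cyp51 of cholesterol synthesis averaged 315 ± 20.0 CPM in sh-1 and 87.8 ± 7.48 CPM in sh-NC (1.84, edgeR adjusted p = 1.6e-08), Ptgis did not pass (-0.36, edgeR adjusted p = 0.508) and Tbxas1 was too low to test.

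Markers of cell types and the targeted gene were read in the same libraries. Of 19 hepatocyte markers 16 were tested, with 3 higher and 6 lower, and their summed level ranged from 6752 to 8386 CPM in sh-1 and from 9830 to 12087 CPM in sh-NC, most of it from Krt8 and Krt18. Alb averaged 2.68 ± 1.07 CPM in sh-1 and 4.43 ± 0.730 CPM in sh-NC, and Ttr 0.164 ± 0.0443 CPM in sh-1 and 2.09 ± 0.0733 CPM in sh-NC, both called lower (edgeR adjusted p of 0.0461 and 1.15e-05). Apob, another secreted marker, averaged 34.9 ± 6.74 CPM in sh-1 and 6.03 ± 1.88 CPM in sh-NC. Of 8 biliary markers 5 were tested, with 2 higher and 2 lower, summing to 3492 to 3931 CPM in sh-1 and 1888 to 2119 CPM in sh-NC. Macrophage markers (1 higher and 1 lower of 3 tested, Clec4f at 0) summed to 1.88 to 3.48 CPM in sh-1 and 5.95 to 7.49 CPM in sh-NC. Stellate markers (1 higher of 2 tested, Lrat at 0) summed to 7.90 to 10.2 CPM in sh-1 and 7.82 to 8.87 CPM in sh-NC. Endothelial markers (1 higher and 1 lower of 2 tested, Lyve1 and Clec4g at 0) summed to 1.72 to 2.23 CPM in sh-1 and 1.13 to 1.69 CPM in sh-NC. Hnf4a stands both among the markers and among the transcription factors. The part of these shifts in the P450 and UGT results was not tested. Tm9sf1 itself measured 35.3, 36.8 and 36.5 CPM in sh-1 and 47.2, 53.4 and 45.8 CPM in sh-NC (log2 fold change -0.43, edgeR adjusted p = 0.00186), and its corrected value of -0.09 did not pass (adjusted p = 0.358).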

How the data were processed

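The authors deposited 1 table for the series, with whole-number counts per gene and library, not normalised, and deposited FPKM values, which per the file headers are relative to length and depth. The submitters' processing notes name HISAT2, StringTie and GRCm38 without versions, and the counting rule and strand setting are not given in sources used here. The 26359 rows with an identifier were used, and 10 without one were left out. All 116 members were found in GENCODE M21. Of the counts from 1 to 10, 62.9% were even, and why was not tested.

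Counts were fitted in R 4.3.3 with edgeR 4.0.16 (filterByExpr, TMM, robust glmQLFit and glmQLFTest, group alone, two-sided), adjusted by Benjamini-Hochberg over 13197 genes with a threshold of 0.05. CPM is TMM-scaled. Every log2 fold change is sh-1 over sh-NC, and its SE comes from the F statistic. A bound for a group with no count uses 3 counts over that group. The GC and length correction entered each library's spline trend (5 and 4 degrees of freedom) over the 11956 genes (90.6%) with an annotated transcript as an offset, which also removes a true change shared by such genes. Alternatives used DESeq2 1.42.0, limma 3.58.1 on log2(FPKM + 0.1) and log2(FPKM + 1), other scaling and filters, and each library left out. The fit was tested on simulated data. No label describes the replicates as separate cultures, and p-values then cover only variation among these 6 libraries, possibly technical. The members and lists were chosen with earlier results of these data known. Every tested member may be named, with all libraries for those of at least 1 CPM, and from each supporting list up to 4 called genes with the smallest adjusted p, besides 8 fixed ones. Sequences come from RefSeq (GRCm38.p6) and GENCODE M21 transcripts. Beyond that rule, Cyp2c40, Ugt1a10 and the members without counts were named after their values were seen. Some genes of the supporting lists are counted but not reported here by name.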

Additional observations from a re-analysis of the deposited data

How the results depend on the processing

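Of the 27 called members, 18 (13 higher and 5 lower) kept direction and call in each of the alternatives that refitted them, and 9 lost or turned it in at least 1. The edgeR fit with RLE size factors gave 17 higher and 10 lower members, limma on log2(FPKM + 0.1) gave 17 and 9, and on log2(FPKM + 1) 19 and 9. DESeq2 tested 58 members and called 18 higher and 11 lower, and without a filter 80 were tested, 18 higher and 8 lower. Leaving out 1 library at a time gave 40 to 44 tested, 16 to 19 higher, 7 to 10 lower and 32 to 33 expressed. A threshold of 0.5 CPM gave 36 expressed members and 1 FPKM gave 25. Title numbers 2 and 3 occur in both groups. Libraries with the same number did not deviate together (correlations 0.03 and -0.05). With so few libraries, these values cannot tell whether the numbers pair them. With the title number as a replicate block 16 members were higher and 7 lower. Cyp2c65 (0.28), Cyp4v3 (0.61) and Ugt1a7c (0.070) changed sign, and Cyp2d26, Cyp3a13, Cyp4f13 and Cyp20a1 lost their call. In that fit the group difference rests only on the libraries numbered 2 and 3, since each other library is taken up by its own block. What else contributed was not tested. The GC and length correction turned Cyp2j6 (-0.058), Cyp4f13 (0.034) and Cyp20a1 (-0.30), and the calls of Cyp39a1, Cyp2c55 and Cyp4f16 were lost. Members that were not called also changed sign: Ugt1a7c to 0.067 and 0.029 in limma with FPKM + 0.1 and + 1, and to values between -0.58 and 0.32 with 1 library left out, where Cyp2d34 lay between -0.24 and 0.59. Low counts limit the size of every change in members near 0 in sh-NC.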
